A study of Homo sapiens with 12 samples.

Results

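HT1376 CT and HT1376 FOXP3 KO cells were compared after 48 hours of 100 ng/mL IFNγ, across all genes of the RNA-seq counts. HT1376 is a human bladder cancer cell line. HT1376 CT is a CRISPR control made with a guide RNA against luciferase, which the sample labels call wild type, and HT1376 FOXP3 KO carries CRISPR/Cas9 cuts in exon 2 of FOXP3. Both lines were transduced with lentivirus and selected with puromycin, and each is a single-cell clone, so a difference between them cannot be told apart from a difference between 2 clones. The members are the 6 libraries labelled as IFNγ-treated, 3 per line with replicate numbers 11, 12 and 13, of 12 libraries in the series. The other 6 are the same lines without IFNγ and were used only where named. Nothing in the sources used here says that the 3 libraries of a line came from separate cultures, so the p-values measure the spread between these libraries, which may be technical.

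IFNγ is the cytokine with which T cells and NK cells switch on antigen presentation in a tumour cell. Its receptor works through the kinases JAK1 and JAK2, which phosphorylate STAT transcription factors. STAT dimers bind GAS elements in promoters and induce IRF1, which carries the response on to MHC class I genes, to CIITA, the master regulator of MHC class II, and to CD274, the gene of PD-L1. FOXP3 is the forkhead transcription factor that defines regulatory T cells and is also found in some carcinomas. Forkhead factors bind motifs with an AAACA core.

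The 6 libraries held 4490684 to 30680995 counts (median 12549032). Replicate 12 was the shallowest in both lines, with 4490684 counts in HT1376 CT and 9054262 in HT1376 FOXP3 KO. Mitochondrial genes took 3.39% to 3.56% of the counts in HT1376 CT and 4.08% to 4.86% in HT1376 FOXP3 KO, and MALAT1 took 2.86% to 3.88% and 4.47% to 5.27%. The part of these shares in the results below was not tested. FOXP3 itself had 1, 0 and 0 counts in HT1376 CT and 0, 0 and 3 in HT1376 FOXP3 KO, so its RNA does not check the labels. The list of 10 bladder epithelial identity genes summed to 4016 to 4411 CPM (counts scaled to a common library size, with TMM as the correction for library composition) in HT1376 CT and to 4223 to 5193 in HT1376 FOXP3 KO. All 10 were detected in both lines, and KRT8 was at 1298, 1048 and 1147 CPM in HT1376 CT and 1268, 1025 and 1324 in HT1376 FOXP3 KO.

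Of 24388 genes tested, 7046 (28.9%) differed between the lines by edgeR's quasi-likelihood test with Benjamini-Hochberg adjustment at 0.05. HT1376 FOXP3 KO was above HT1376 CT in 3225 (13.2%) of the tested genes and below it in 3821 (15.7%), and the median log2 fold change over all genes tested was 0.02. The 2 groups of libraries did not overlap in 44.1% of genes. An absolute log2 fold change over 2 was reached by 2948 of the called genes (12.1% of those tested), 1145 higher (4.69%) and 1803 lower (7.39%). Protein-coding genes were called more often than long noncoding RNAs, at 37% and 20.8%. The calls rose with expression, from 12.2% of genes under 1 CPM to 45.0% of genes at 100 CPM or more, and the median size of a called change fell from 4.76 to 0.74 on the log2 scale over the same range. All fold changes below are given as HT1376 FOXP3 KO minus HT1376 CT on the log2 scale. In bulk RNA, fewer cells with a transcript and less of it in each cell cannot be told apart.

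The protein-coding genes with the largest differences in CPM included genes of cell adhesion, matrix and the epithelial surface. LAMA3, a laminin-332 chain of the epithelial basement membrane, was at 952, 1729 and 2005 CPM in HT1376 CT and at 40.0, 100 and 92.1 in HT1376 FOXP3 KO (log2 fold change -4.33, SE 0.37, adjusted p = 7.4e-06 by edgeR). The collagen receptor subunit ITGA2 fell from 1676, 1941 and 2310 CPM to 239, 200 and 301. In both genes, each library of HT1376 FOXP3 KO lay below each library of HT1376 CT. Lower genes of this group also included the membrane mucin MUC16 (-2.81), the crosslinking transglutaminase TGM2 (-2.01), the prostaglandin synthase PTGS2 (-3.48) and the interferon-inducible genes RNF213 (-2.47) and SAMD9 (-2.28).

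On the higher side stood matrix genes of another kind. FN1, fibronectin, was at 130, 581 and 720 CPM in HT1376 CT and at 2403, 4781 and 2068 in HT1376 FOXP3 KO (2.69, SE 0.52, adjusted p = 0.00249 by edgeR). The fibril-associated collagen COL12A1 rose from 514, 275 and 256 CPM to 2106, 2036 and 1965 (2.55, SE 0.23). The fibrillins FBN1 (2.55) and FBN2 (4.62) rose as well. FN1 spread the most within a line, and the other matrix genes repeated closely in the 3 libraries of HT1376 FOXP3 KO. SIGLEC6, a sialic acid-binding lectin of placenta and immune cells, was at 1.22, 0.685 and 0.917 CPM in HT1376 CT and at 618, 1263 and 526 in HT1376 FOXP3 KO (9.66, SE 0.43). RHOBTB3 (4.59), PDZD2 (4.75) and EPAS1, which encodes HIF-2α (2.60), completed the 8 higher genes.

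**Figure D1:**
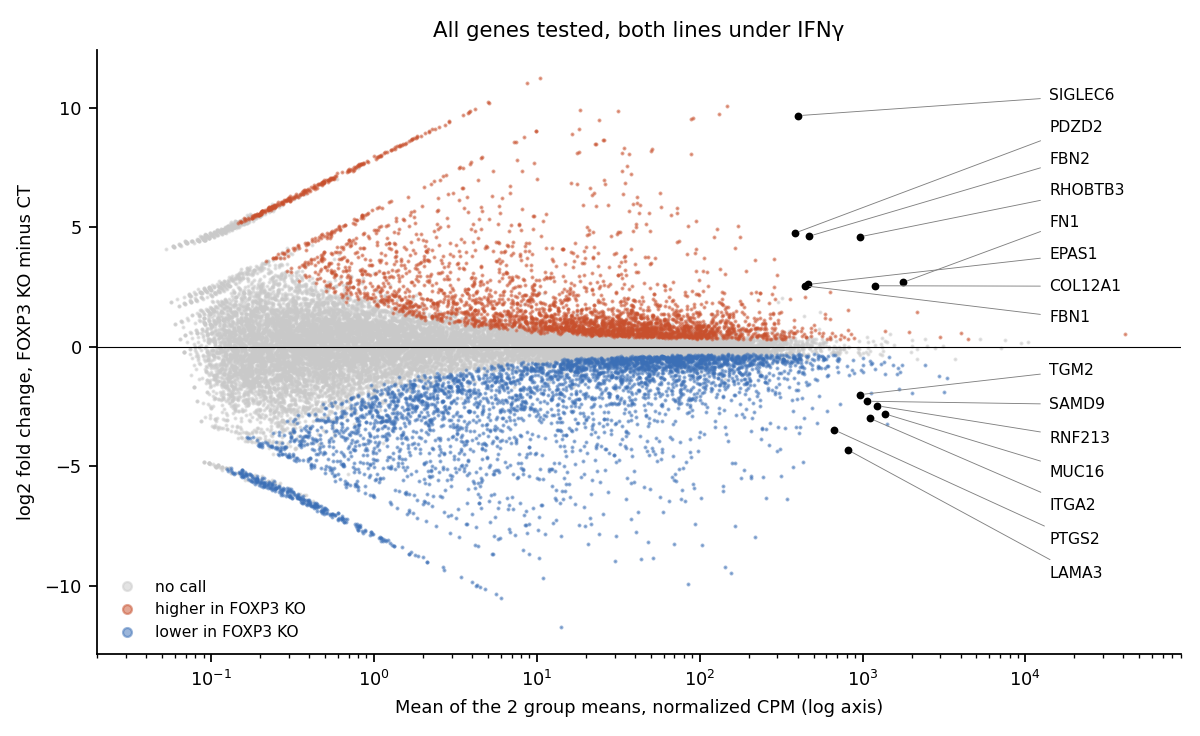
Log2 fold change (HT1376 FOXP3 KO minus HT1376 CT, vertical axis) against the mean of the 2 group means in normalized CPM (horizontal log axis) for the 24388 genes tested under IFNγ, with called genes coloured and the 8 higher and 7 lower protein-coding genes among those of largest CPM difference labelled. SIGLEC6 stands highest of the labelled genes at 9.66 and LAMA3 lowest at -4.33; the lines of points at low CPM are genes at 0 in a group.

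The protein-coding genes of largest fold change among those above 1 CPM on average in both lines were taken next. HDAC9, a class IIa histone deacetylase, was at 347, 527 and 438 CPM in HT1376 CT and 1.42, 1.95 and 1.82 in HT1376 FOXP3 KO (-7.98, SE 0.22, adjusted p = 1.08e-08 by edgeR). The IL-1 decoy receptor IL1R2 (-7.51), the actin-bundling protein FSCN1 (-6.46) and the lysophosphatidic acid receptor LPAR1 (-6.46) were also lower. In the other direction were CSF1R, the receptor of macrophage colony-stimulating factor (6.45), the liprin PPFIBP2 (6.26), the suprabasal keratin KRT1 (6.0) and the protein kinase A subunit PRKAR2B (5.93). In HT1376 CT, 97 genes were at 0 in all 3 libraries while averaging at least 1 CPM in HT1376 FOXP3 KO, and 83 genes showed the reverse.

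Of 26 receptor and JAK-STAT genes of the IFNγ pathway, 13 were lower and 2 higher in HT1376 FOXP3 KO, beside 15.7% lower and 13.2% higher over all genes tested. The median of the list was -0.79 beside 0.02 over all genes tested, and 13 lower and 2 higher were also counted without the 2 libraries numbered 12. JAK2 was at 49.3, 62.8 and 52.0 CPM in HT1376 CT and 17.5, 16.1 and 16.6 in HT1376 FOXP3 KO (-1.70, SE 0.15, adjusted p = 9.99e-06 by edgeR). Its partner JAK1 moved the other way, from 198, 244 and 238 CPM to 358, 318 and 321 (0.56, SE 0.12, adjusted p = 0.00533). The libraries of the 2 lines did not overlap for either kinase.

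Upstream of the kinases, the receptor chain IFNGR1 was at 45.5, 56.6 and 41.4 CPM against 34.7, 38.3 and 32.8 (-0.43, SE 0.15, adjusted p = 0.0569), and the second chain, IFNGR2, was lower (-1.28). Downstream, the transcription factor IRF1 was at 840, 846 and 878 CPM in HT1376 CT and 380, 376 and 380 in HT1376 FOXP3 KO (-1.17, SE 0.10, adjusted p = 6.34e-06 by edgeR). The spread within either line was small beside that difference. The IFNγ-induced partner factor BATF2 fell from a mean of 106 to 12.2 CPM (-3.12). STAT3 (-0.74), STAT6 (-1.41), STAT5A (-2.13), IRF2 (-0.85) and IRF7 (-0.94) were lower, whereas STAT2 (-0.25) and IRF9 (0.29) were not called. The feedback inhibitors SOCS1 (-0.88), SOCS3 (-2.34) and USP18 (-2.79) were lower with them, and the phosphatases PTPN1 (-0.00), PTPN2 (-0.15) and PTPN6 (0.07) were not called. SOCS1 lost its call when the libraries were thinned to equal depth or when HT1376 CT replicate 11 or HT1376 FOXP3 KO replicate 11 was left out. PTPN11, a phosphatase of many receptors, was higher (0.37), a call lost on leaving out any library other than HT1376 FOXP3 KO replicate 12.

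**Figure D2:**
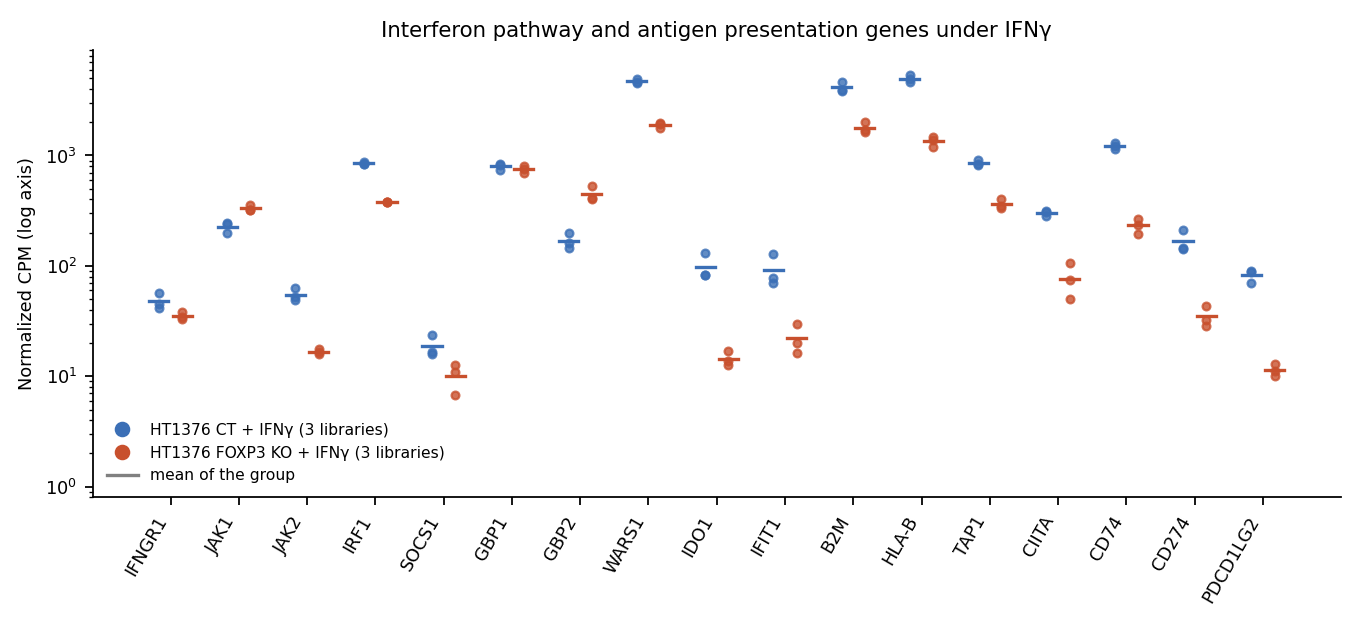
Normalized CPM (log axis) of 17 genes of the IFNγ pathway, antigen presentation and PD-1 ligands in each of the 3 HT1376 CT and 3 HT1376 FOXP3 KO libraries under IFNγ, with a bar at each group's mean. GBP1 sits almost level in the 2 lines, JAK1 and GBP2 stand higher in HT1376 FOXP3 KO, and CD74, CD274 and PDCD1LG2 stand lower without overlap.

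The promoters of IRF1 and CD274 carried the GAS consensus, and those of JAK2 and CD74 a forkhead motif. The 4 windows are shown because these genes were lower in HT1376 FOXP3 KO. Promoters of higher genes carried such motifs too, among them TCF4 and TGFB1 (forkhead) and SIGLEC6 (GAS), and are not shown. They come from the RefSeq promoter sequences of GRCh38.p14, 250 bases before to 50 after each start, read 5′ to 3′ with the motif in capitals.
IRF1, GAS, chr5:132490879-132490907, minus strand: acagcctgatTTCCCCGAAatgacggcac
CD274, GAS, chr9:5450407-5450435, plus strand: ttccgccgatTTCACCGAAggtcaggaaa
CD74, forkhead, chr5:150413081-150413107, minus strand: agaaggggagACAAACAaaggtgtctt
JAK2, forkhead, chr9:4984199-4984225, minus strand, opposite to the gene: cgacaaaacaACAAACAacgctttaaa
The first capital lay at position -124 from the start in IRF1, -125 in CD274, -187 in CD74 and -175 in JAK2. The GAS search used TTCNNNGAA, which reads the same on both strands, and found it in 6.69% of the 13193 promoters of tested genes, in 6.74% of those of lower genes and in 6.0% of those of higher genes. The forkhead search covered both strands with ATAAACA as well as ACAAACA, with GCAAACA besides, and with GTAAACA, whose reverse complement TGTTTAC was searched too. It found a motif in 10.7% of all promoters (95% Clopper-Pearson interval 10.2 to 11.2), 11.1% of lower genes (9.86 to 12.4), 13.5% of higher genes (12.1 to 15.0) and 9.88% of genes without a call (9.26 to 10.5). Among called genes with an absolute log2 fold change over 2, the share was 13.7% of lower (11.6 to 16.1) and 16.0% of higher genes (13.2 to 19.2). These windows hold letters only, and no binding was measured in them. The CD274 promoter sites at which the paper reports FOXP3 binding by ChIP PCR lie further upstream than the sequences searched here. The shorter form TAAACA, which the paper gives for some of its sites, was not searched on its own.

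Among the effector genes that IFNγ induces, 28 of 40 tested were lower and 2 higher in HT1376 FOXP3 KO, with a median of -0.98. WARS1, the tryptophanyl-tRNA synthetase, was at 4671, 4534 and 4920 CPM in HT1376 CT and 1982, 1762 and 1920 in HT1376 FOXP3 KO (-1.32, SE 0.09, adjusted p = 2.04e-06 by edgeR). IDO1, which breaks down tryptophan and thereby restrains T cells, was at 83.2, 83.3 and 130 CPM against 12.7, 13.8 and 16.9 (-2.77, SE 0.21, adjusted p = 3e-06). A later enzyme of that route, KYNU, was lower too (-2.29). All 3 enzymes of tryptophan handling were lower without overlap. The inflammatory caspase CASP1 fell from a mean of 159 to 5.51 CPM (-4.81), with its neighbours CARD16 (-5.46) and CARD17 (-3.87, a pseudogene in GENCODE), which resemble it in sequence so that reads may have been split between them. CASP4 (-2.08), IFI16 (-1.17), SAMHD1 (-1.59) and the ubiquitin-like UBD (-5.12) were also lower.

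The guanylate-binding proteins, GTPases that attack intracellular pathogens, did not move together. GBP1 was at 845, 738 and 814 CPM in HT1376 CT and 753, 799 and 688 in HT1376 FOXP3 KO, with overlapping libraries (-0.10, SE 0.11, adjusted p = 0.543 by edgeR). GBP2 was at 162, 200 and 144 CPM against 527, 412 and 401, higher without overlap (1.41, SE 0.16, adjusted p = 5.3e-05). GBP4 (-0.77) and GBP5 (-1.37) were lower, and GBP3 was not called (-0.29). The second higher effector was TNFSF10, the death ligand TRAIL, at 46.9, 129 and 42.3 CPM against 246, 606 and 176 (2.26, SE 0.50, adjusted p = 0.00552). TNFSF10 was highest in replicate 12 of both lines.

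The antiviral interferon-stimulated genes were lower almost throughout, with 27 of 33 lower, 0 higher and a median of -1.47. IFIT1, which blocks viral RNA translation, was at 77.5, 128 and 69.8 CPM in HT1376 CT and 16.4, 29.8 and 20.2 in HT1376 FOXP3 KO (-2.05, SE 0.27, adjusted p = 0.000166 by edgeR). ISG15, the ubiquitin-like modifier, was at 51.1, 91.7 and 49.6 CPM against 12.4, 19.7 and 17.7 (-1.94, SE 0.26). The dynamin-like MX1 (-2.82), the radical enzyme RSAD2 (-3.13), the nucleotide kinase CMPK2 (-3.03) and OAS2 (-2.03) were lower by more. Genes of larger CPM were lower by less, PARP14 from a mean of 1930 to 1138 CPM (-0.76) and DTX3L from 830 to 561 CPM (-0.56). IFIT2, IFI6, OAS1, DHX58 and ADAR were among the 6 without a call, and 0 were higher at an unadjusted p under 0.05 by edgeR or in DESeq2.

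MHC class I presentation was lower at nearly every step, with 18 of 22 genes lower and 0 higher (median -0.81). B2M, the invariant light chain, was at 3824, 4651 and 3924 CPM in HT1376 CT and 1625, 2021 and 1696 in HT1376 FOXP3 KO (-1.21, SE 0.12, adjusted p = 2.07e-05 by edgeR). HLA-B was at 4646, 5407 and 4890 CPM against 1194, 1484 and 1375 (-1.88, SE 0.11). The peptide transporter TAP1 was at 835, 824 and 903 CPM against 350, 333 and 406 (-1.23, SE 0.11). The 2 lines were clearly apart for all 3. NLRC5, the transactivator of these genes, was lower (-0.81), and the immunoproteasome subunits PSMB8 (-0.80) and PSMB9 (-0.77) were lower, whereas PSMB10 (-0.24) and the activator genes PSME1 (-0.13) and PSME2 (-0.31) were not called. TAPBPL, a tapasin relative that edits peptides, was at 15.6, 13.5 and 12.5 CPM against 20.01, 20.39 and 18.44 (0.50, adjusted p = 0.0514), higher at an unadjusted p under 0.05 by edgeR and called higher by DESeq2. The endoplasmic reticulum chaperones CALR (-0.95), CANX (-0.78) and PDIA3 (-0.84) were lower as well. Reads of the HLA genes can match more than 1 member, so their separate values, HLA-G (-2.70) and HLA-F (-2.23) included, are uncertain.

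MHC class II showed the lowest median of the interferon lists, -2.0, with 14 of 17 genes lower and 0 higher. CIITA was at 283, 307 and 314 CPM in HT1376 CT and 74.3, 106 and 49.8 in HT1376 FOXP3 KO (-1.98, SE 0.22, adjusted p = 6.24e-05 by edgeR). CD74, the invariant chain that escorts class II molecules, was at 1136, 1300 and 1221 CPM against 267, 237 and 196 (-2.39, SE 0.13, adjusted p = 3.67e-07). HLA-DRA was at 332, 369 and 343 CPM against 121, 98.3 and 71.3 (-1.85, SE 0.18). The groups were apart in each case, and the classical chains of DP, DQ and DR all lay between -2.75 and -1.85. The peptide-loading genes HLA-DMA (-1.69) and HLA-DMB (-1.94), the processing protease CTSS (-3.36) and the promoter factor RFX5 (-1.64) were lower, while RFXAP (0.52), RFXANK (-0.46) and HLA-DOB (-1.45) were not called. In this list 0 genes were higher at an unadjusted p under 0.05 by edgeR, and 0 by DESeq2. A set of 10 neighbouring expressed genes on chromosome 6 (32439878 to 32969094, GRCh38), from HLA-DRA through TAP2, PSMB8, PSMB9 and TAP1 to HLA-DMA, formed an unbroken lower run.

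Ligands of inhibitory and stimulatory T-cell receptors were lower in 14 of 23 genes and higher in 2 (median -1.41). CD274 was at 142, 145 and 212 CPM in HT1376 CT and 32.6, 28.6 and 43.5 in HT1376 FOXP3 KO (-2.25, SE 0.20, adjusted p = 1.12e-05 by edgeR). PDCD1LG2, the gene of PD-L2, was at 87.4, 70.1 and 89.0 CPM against 10.1, 11.3 and 13.0 (-2.84, SE 0.16, adjusted p = 4.35e-07). CEACAM1, an adhesion molecule that binds TIM-3, was at 389, 505 and 626 CPM against 4.61, 3.04 and 9.91 (-6.35, SE 0.39). None of the 3 overlapped between lines, and CEACAM1 stayed under 10 CPM in HT1376 FOXP3 KO. The phagocytosis inhibitor CD47 (-1.58), the adenosine-forming enzyme NT5E (-1.99), the butyrophilins BTN3A1 (-1.35) and BTN2A2 (-1.41), TNFRSF14 (-1.55) and LGALS9 (-2.62) were lower. VSIR, which encodes VISTA, rose from 35.9, 31.5 and 32.9 CPM to 71.1, 118 and 69.6 (1.36, SE 0.20). VTCN1 was the other higher gene, with 3 counts over the HT1376 CT libraries and a ratio of 8.5 (95% counting interval 2.72 to 42.9), and 1 gene of the list was left higher with the bias-adjusted deviance, with thinning and on leaving out any library besides HT1376 FOXP3 KO replicate 13, VSIR keeping its call in each. CD276 (-0.39) and CD40 (0.06) were not called.

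**Figure D3:**
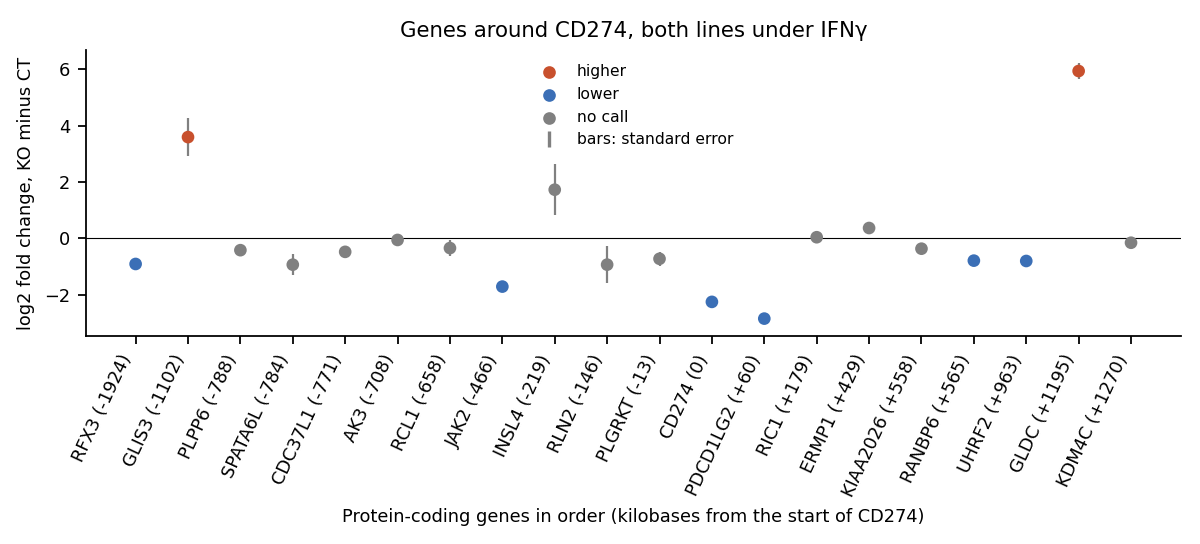
Log2 fold change (points, with bars of 1 standard error) of the 20 tested protein-coding genes whose start lies within 2000000 bases of the start of CD274, in chromosomal order with the distance in kilobases beside each name. JAK2, CD274 and PDCD1LG2 are the lowest of the 20 at -1.70, -2.25 and -2.84, and GLDC is the highest at 5.94.

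CD274, PDCD1LG2 and JAK2 lie close together on the short arm of chromosome 9, and CD274 spans 5450503 to 5470566 on GRCh38. Of the 26 protein-coding genes within 2000000 bases of its start, 20 were tested. Among them 6 were lower and 2 higher, beside 20.4% lower and 16.6% higher of all protein-coding genes tested. RFX3 (-0.90), RANBP6 (-0.78) and UHRF2 (-0.80) were the other lower genes, and GLIS3 (3.59) and the glycine decarboxylase GLDC (5.94) were the higher ones. The median of the 16 expressed genes among them was -0.44, against -0.09 for chromosome 9 and -0.01 for all expressed protein-coding genes. PLGRKT and RIC1, on either side of the pair of PD-1 ligand genes, were not called, but their values differed. PLGRKT lay lower without overlap (-0.72, SE 0.26, adjusted p = 0.0573 by edgeR). Without IFNγ it was called lower (-0.81, adjusted p = 0.00587 by edgeR). RIC1 overlapped between the lines (0.04, SE 0.13).

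Chemokines and cytokines were lower in 16 of 27 tested genes and higher in 2 (median -1.98), most of them at low levels. CXCL10, which draws T cells through CXCR3, was at 24.1, 107 and 87.3 CPM in HT1376 CT and 15.9, 27.0 and 13.0 in HT1376 FOXP3 KO (-1.98, SE 0.45, adjusted p = 0.00708 by edgeR), and the groups overlapped through HT1376 CT replicate 11. CXCL9 (-2.50) and CXCL11 (-2.44), ligands of the same receptor, were lower with it. IL32 was at 346, 523 and 635 CPM against 18.9, 28.9 and 39.3 (-4.10, SE 0.29). LIF fell from a mean of 75.9 to 0.366 CPM (-7.21) and TNF from 24.0 to 2.64 CPM (-3.16). IL18, a cytokine that itself raises IFNγ output, rose from 11.8, 7.99 and 8.25 CPM to 25.8, 18.2 and 24.7 (1.29, SE 0.22). CXCL8 was at 0.934, 11.2 and 2.75 CPM against 2.10, 3.15 and 1.91 and was not called (adjusted p = 0.358).

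Genes of the NF-κB pathway, through which TNF and IL-1 act, were lower in 12 of 17 and higher in 0 (median -1.32). TNFAIP3, which encodes the feedback enzyme A20, was at 594, 822 and 851 CPM in HT1376 CT and 52.4, 102 and 69.8 in HT1376 FOXP3 KO (-3.34, SE 0.24, adjusted p = 1.99e-06 by edgeR). BIRC3 was at 348, 757 and 675 CPM against 197, 245 and 174 (-1.53, SE 0.25). The subunits NFKB1 (-0.65), NFKB2 (-1.64), RELA (-0.61) and RELB (-1.58) were lower. NFKBIA, the inhibitor that NF-κB induces first, was at 83.2, 136 and 112 CPM against 120, 128 and 124, with overlap and no call (0.17, adjusted p = 0.478). Here too 0 genes were higher at an unadjusted p under 0.05 by edgeR or in DESeq2.

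Genes of cell death were lower in 20 of 36 and higher in 3 (median -0.57), CASP1 and CASP4 counted here again. FAS was at 37.1, 41.3 and 34.6 CPM in HT1376 CT and 11.0, 15.5 and 14.8 in HT1376 FOXP3 KO (-1.45, SE 0.18, adjusted p = 0.00011 by edgeR). The TRAIL receptors TNFRSF10A (-2.77) and TNFRSF10B (-2.40) were lower while their ligand TNFSF10 was higher. The necroptosis effector MLKL (-3.25), the survival genes BCL2L1 (-1.03) and MCL1 (-0.52) and the BH3 genes BID (-4.26) and PMAIP1 (-1.44) were lower, so that genes for and against death are both among the 20. GSDME, a pore-forming gasdermin, was at 0.467, 1.37 and 0.755 CPM against 41.1, 45.1 and 49.2 (5.89, SE 0.27, adjusted p = 1.1e-07).

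**Figure D4:**
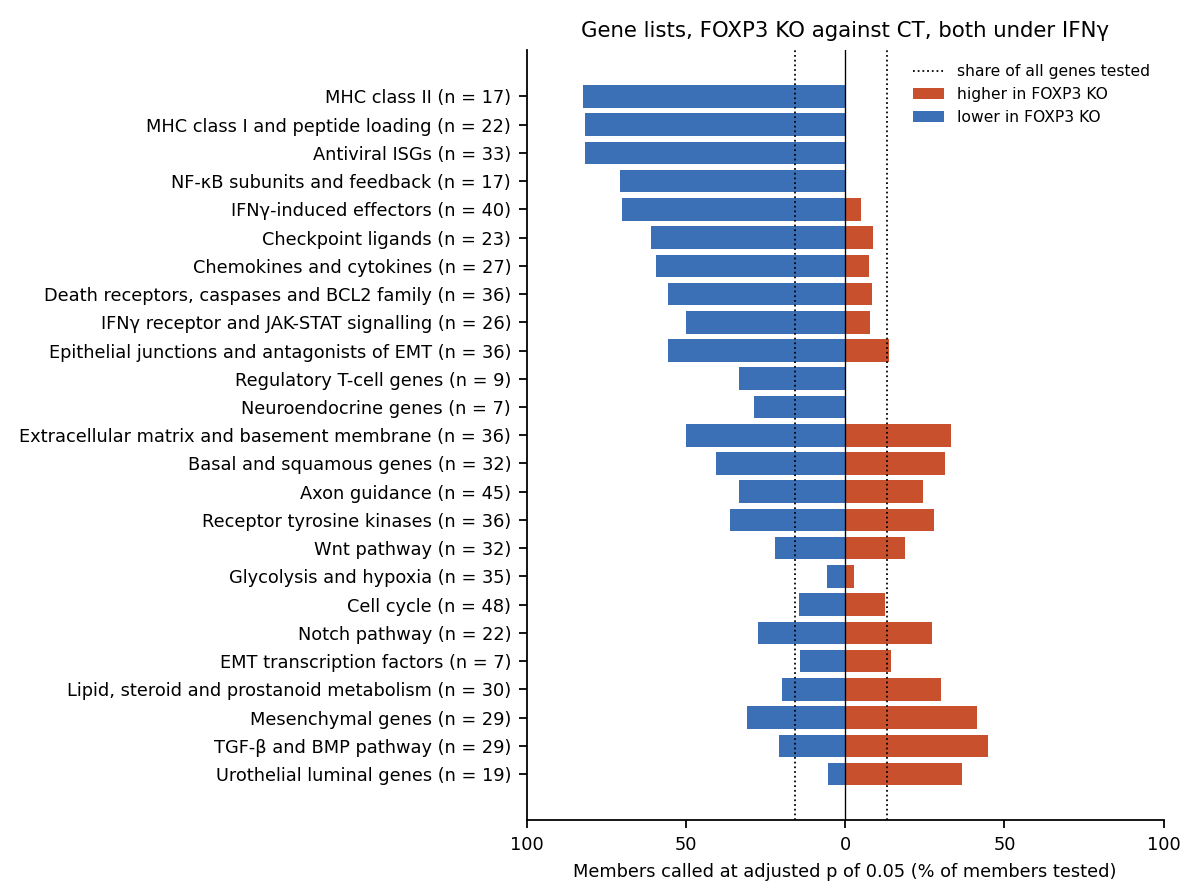
Share of each gene list's tested members that were lower (bars to the left) or higher (bars to the right) in HT1376 FOXP3 KO under IFNγ at an adjusted p of 0.05, with the number tested beside each name. Dotted lines mark the shares over all genes tested, 15.7% lower and 13.2% higher; the MHC class II list reaches 82.4% lower and the TGF-β and BMP list 44.8% higher.

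Epithelial junction genes were lower in 20 of 36 and higher in 5 (median -0.54). CDH1, E-cadherin, was at 373, 391 and 383 CPM in HT1376 CT and 232, 288 and 277 in HT1376 FOXP3 KO (-0.52, SE 0.12, adjusted p = 0.00586 by edgeR). MUC1, an apical mucin, was at 239, 408 and 342 CPM against 30.9, 59.6 and 38.4 (-2.94, SE 0.26). EPCAM was at 36.5, 67.8 and 57.7 CPM against 16.0, 15.0 and 17.5 (-1.73, SE 0.21). These 3 surface genes were lower without overlap, E-cadherin by the least. P-cadherin CDH3 (-4.62), the claudins CLDN4 (-1.85) and CLDN7 (-1.27), occludin OCLN (-1.49) and the epithelial factors GRHL3 (-3.87) and EHF (-3.66) were lower too. The desmosome gene DSP was higher, at 1219, 1193 and 1037 CPM against 2365, 4966 and 2187 (1.46, SE 0.26), as were PKP2 (2.55) and GRHL2 (0.60), and the splicing factor ESRP1 (-0.28) was not called.

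Mesenchymal genes split, with 12 of 29 higher, 9 lower and a median of 1.2. The median was 0.37 without the 2 libraries numbered 12 and -0.17 without HT1376 FOXP3 KO replicate 12 alone, with 12 genes still higher in each case. Besides FN1 and FBN1, the collagens COL1A2 (5.04) and COL5A1 (5.03), the proteoglycan DCN (5.85), the cytoskeletal CALD1 (3.12) and the membrane protease MMP14 (1.2) were higher. TNC, tenascin-C, fell from 389, 419 and 283 CPM to 1.36, 4.23 and 23.03 (-5.15, SE 0.74), and the receptor kinase AXL from 114, 91.7 and 148 CPM to 0.203, 0.759 and 1.56 (-6.90, SE 0.42). VIM had no count in any of the 6 libraries. Of the transcription factors of epithelial-to-mesenchymal transition (EMT), ZEB1 was at 1.87, 2.97 and 6.04 CPM in HT1376 CT and 0.407, 0.325 and 0.127 in HT1376 FOXP3 KO (-3.82, SE 0.64, adjusted p = 0.000984 by edgeR). SNAI2, at 22.5, 13.5 and 15.9 CPM against 21.2, 25.4 and 21.0, was not called (0.36, adjusted p = 0.222), and TCF4 was higher (1.54).

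The same division ran through the wider matrix list, with 18 of 36 lower and 12 higher (median -0.52). THBS1, thrombospondin-1, fell from 454, 251 and 517 CPM to 9.09, 4.45 and 14.02 (-5.42, SE 0.40, adjusted p = 2.49e-06 by edgeR). COL4A1 (-2.69), COL4A5 (-0.74) and COL4A6 (-2.23) were lower, whereas COL4A3 (6.87) and COL4A4 (5.96), a pair transcribed from a shared promoter, were higher. LAMC1 (0.70), LAMB2 (0.99) and LAMA5 (0.54), chains of laminin-511 and laminin-521, were higher while the laminin-332 chains LAMA3 and LAMB3 (-1.93) were lower. The laminin-332 receptor subunit ITGB4 was at 1037, 941 and 1094 CPM against 520, 553 and 677 (-0.81), and ITGA6 was higher (0.34), a call lost when both libraries numbered 12 were left out (adjusted p = 0.112) or on leaving out any library other than HT1376 CT replicate 11.

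Markers of other cell types were examined beside these matrix genes. The fibroblast and muscle list summed to 56.1 to 80.1 CPM in HT1376 CT and 465 to 659 in HT1376 FOXP3 KO. Within it, 5 of 10 tested genes were higher (DCN, LUM, COL1A2, COL3A1 and PDGFRB) and 3 lower (COL1A1, FAP and RGS5), and MYH11 and ACTA2 were not called. The blood cell list summed to 5.23 to 8.42 CPM against 75.7 to 184, of which CSF1R made up 86.5, 181 and 73.0 CPM in HT1376 FOXP3 KO. PTPRC, the pan-leukocyte marker, stayed under 1 CPM in all 6 libraries, and 6 of the 17 blood markers had no count at all. The endothelial list stayed between 1.02 and 4.99 CPM in both lines. The part of other cell types in the matrix results was not tested.

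Genes of the luminal urothelial programme were higher in 7 of 19 and lower in 1 (median 1.23). The median was 0.75 without HT1376 FOXP3 KO replicate 11, 0.80 without HT1376 FOXP3 KO replicate 13, 0.81 without HT1376 CT replicate 11 and 0.57 when genes with a single count were tested too. PPARG, the nuclear receptor of luminal urothelium, was at 13.3, 7.30 and 9.65 CPM in HT1376 CT and 42.3, 57.6 and 52.6 in HT1376 FOXP3 KO (2.30, SE 0.22, adjusted p = 1.59e-05 by edgeR). KRT7 was at 400, 367 and 497 CPM against 1371, 832 and 1432 (1.52, SE 0.20). Both luminal genes were higher without overlap. GATA3, at 144, 107 and 142 CPM against 90.5, 107 and 103.1, was not called (-0.39, adjusted p = 0.0608), but was called lower without the 2 libraries numbered 12 (adjusted p = 0.00238).

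Basal and squamous genes were higher in 10 of 32 and lower in 13 (median 0.21). The cornified envelope genes SPRR1A (-5.49), SPRR1B (-5.75), SPRR2A (-5.98) and SPRR3 (-4.86) were lower, SPRR3 from a mean of 317 to 10.6 CPM. The keratins divided, KRT14 being higher (1.17) with KRT1 (6.0) and KRT10 (1.52) and KRT6A (-1.26), KRT13 (-1.96) and KRT15 (-1.57) lower. The calgranulins S100A7 (2.55), S100A8 (1.84) and S100A9 (1.15) were higher. TP63, the basal master factor, was at 124, 84.2 and 103.3 CPM against 130, 92.5 and 138 and was not called (adjusted p = 0.431), and neither was EGFR (0.21, adjusted p = 0.312). The adhesion receptor CD44 fell from a mean of 844 to 140 CPM (-2.58).

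TGF-β and BMP genes were higher in 13 of 29 and lower in 6 (median 0.43). TGFB1 was at 1.77, 3.65 and 1.94 CPM in HT1376 CT and 9.63, 20.8 and 9.49 in HT1376 FOXP3 KO (2.53, SE 0.40, adjusted p = 0.000699 by edgeR). The BMP target genes ID1 (2.16), ID2 (3.48) and ID3 (1.75), the BMP receptor BMPR1B (5.38) and the TGF-β target TGFBI (3.62) were higher. TGFBR2, the type II receptor, was lower at 1.59, 5.02 and 12.0 CPM against 0.271, 0 and 0.159, and the activin subunit INHBA was lower at 28.9, 90.4 and 63.4 CPM against 1.83, 7.59 and 2.33 (-4.07, SE 0.53). The type I receptor TGFBR1 was lower (-0.53), a call lost without HT1376 CT replicate 12 or HT1376 FOXP3 KO replicate 13. The number of lower genes was 10 without HT1376 FOXP3 KO replicate 12 or without both libraries numbered 12. In the Wnt list 6 of 32 were higher and 7 lower, the latter falling to 4 without HT1376 CT replicate 13 or HT1376 FOXP3 KO replicate 11 or 12, with the antagonist DKK1 falling from 45.5, 27.4 and 45.6 CPM to 0.136, 0.217 and 0.255 (-7.48) and CTNNB1 not called (0.18). In the Notch list 6 of 22 were higher and 6 lower. NOTCH1 (-1.33), NOTCH2 (-2.39) and JAG1 (-0.75) were lower, and NOTCH3 (2.21) and JAG2 (2.38) higher.

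Receptor tyrosine kinases were higher in 10 of 36, or 6 without HT1376 CT replicate 13, and lower in 13 (median -0.01). MET fell from 1115, 1115 and 1213 CPM to 591, 605 and 549 (-0.98, SE 0.10, adjusted p = 2.95e-05 by edgeR). FLT1, a VEGF receptor, was at 0, 0.456 and 0.378 CPM in HT1376 CT and 150, 641 and 90.3 in HT1376 FOXP3 KO (10.06, SE 1.0). ERBB2 was higher (0.56), a call lost on leaving out HT1376 CT replicate 11 or 13 or HT1376 FOXP3 KO replicate 11 or 13. Among axon guidance genes, 11 of 45 were higher and 15 lower. SEMA3A was at 287, 288 and 286 CPM against 0.678, 0.651 and 0.287 (-9.23, SE 0.25, adjusted p = 9.76e-09). SEMA6D was at 0 in all 3 HT1376 CT libraries and at 21.6, 28.0 and 12.8 CPM in HT1376 FOXP3 KO, at least 198-fold higher against a floor of 3 counts over the group. The semaphorin SEMA5A (3.69) and its relative SEMA6A (6.38) were higher and SEMA3D (-8.25) lower.

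The lipid, steroid and prostanoid list had 9 of 30 genes higher and 6 lower (median 0.04), several of them prostanoid genes. PTGS2, cyclooxygenase-2, was at 1053, 1246 and 1393 CPM in HT1376 CT and 76.9, 107 and 146 in HT1376 FOXP3 KO (-3.48, SE 0.22, adjusted p = 8.35e-07 by edgeR). The prostaglandin-degrading enzyme HPGD was at 0 in HT1376 CT and at 18.6, 13.7 and 19.6 CPM in HT1376 FOXP3 KO, at least 206-fold higher. Prostacyclin synthase, PTGIS, was at 0 against 10.3, 14.2 and 5.83 CPM, at least 94.3-fold higher. The first enzyme of prostanoid synthesis was lower while the enzyme that inactivates its products was higher. PTGES was higher (1.59) and the PGE2 receptor PTGER4 lower (-2.40), and the fatty acid and sterol genes FASN (-0.05) and SREBF1 (-0.08) were not called.

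Proliferation genes were called in shares near those over all genes tested, at 12.5% higher and 14.6% lower beside 13.2% and 15.7%. Over protein-coding genes with a mean of at least 5 CPM the shares were larger, 18.8% and 21.7%. Of 48 cell cycle genes, 6 were higher and 7 lower (median 0.04), and MKI67, at 1356, 837 and 1265 CPM in HT1376 CT and 1477, 1343 and 1618 in HT1376 FOXP3 KO, was not called (0.36, adjusted p = 0.128 by edgeR). The higher count was 3 without HT1376 FOXP3 KO replicate 11 or replicate 13, and 11 were higher and 10 lower without both libraries numbered 12. CCND1, cyclin D1, was at 721, 515 and 709 CPM against 102, 79.1 and 119 (-2.70, SE 0.18, adjusted p = 1.37e-06), and CCND2 (-2.84) and CDK6 (-1.47) were lower with it. The inhibitors CDKN1A (-1.91), CDKN2A (-1.38) and CDKN2B (-0.83) and the replication licensing gene CDC6 (-0.51) were lower as well. On the higher side were CDK2 (0.78), the mitotic factors FOXM1 (0.85) and CDC25C (0.52), the helicase subunit MCM2 (0.42) and the inhibitors CDKN1B (0.52) and CDKN2C (1.37), and MCM2 lost its call without HT1376 CT replicate 11 or HT1376 FOXP3 KO replicate 11 or 13. Of 35 glycolysis and hypoxia genes, 1 was higher and 2 lower, but 7 were higher and 11 lower without the 2 libraries numbered 12, 5 and 2 without that of HT1376 CT alone, and 1 and 11 without that of HT1376 FOXP3 KO alone. SLC2A1, the glucose transporter GLUT1, was at 189, 524 and 174 CPM against 433, 1559 and 422, so that replicate 12 was the highest in both lines (1.45, SE 0.53, adjusted p = 0.0617). SLC2A1 was higher in HT1376 FOXP3 KO at each replicate number, and was called higher without both libraries numbered 12 (1.23, adjusted p = 6.08e-06). Neuroendocrine genes were lower in 2 of 7, or 0 without HT1376 CT replicate 13 or HT1376 FOXP3 KO replicate 13, and higher in 0, and regulatory T-cell genes lower in 3 of 9 (NT5E, NRP1 and PRDM1) and higher in 0. At an unadjusted p under 0.05 by edgeR, 1 neuroendocrine gene (POU3F2) and 3 regulatory T-cell genes (ENTPD1, IKZF2 and IKZF4) were higher, and by DESeq2 0 of either list.

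The differences were not spread evenly over the genome. Among 10409 protein-coding genes with a mean of at least 5 CPM, the median log2 fold change was -0.01, and 18.8% were higher and 21.7% lower. On chromosome 12 the median was 0.44 and 47.2% of 551 genes were higher, and on chromosome 14 it was 0.39 with 41.1% higher. On chromosome 8 the median was -0.49 and 49.7% of 366 genes were lower, and on chromosome 15 it was -0.42 with 42.5% lower. Chromosome 3 (0.25) stood on the higher side and chromosomes 4 (-0.30), 21 (-0.34) and 22 (-0.27) on the lower. With library size alone as the scaling, every median shifted up by about the same amount, and these 8 kept their sign. Copy number was not measured in these data.

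**Figure D5:**
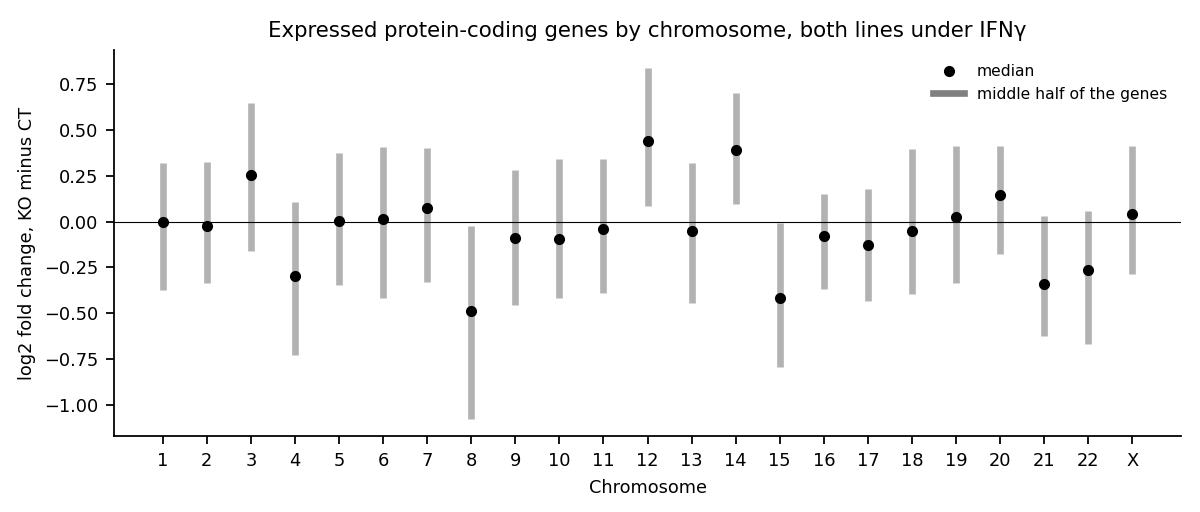
Median log2 fold change (points) and the range of the central 50% of genes (bars) for protein-coding genes of at least 5 CPM on each chromosome, HT1376 FOXP3 KO minus HT1376 CT under IFNγ. Chromosomes 12 and 14 stand highest at 0.44 and 0.39, and chromosomes 8 and 15 lowest at -0.49 and -0.42.

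Unbroken runs of at least 8 neighbouring expressed genes called in the same direction numbered 20, with 208 genes in all. Chromosome 12 held 7 higher runs and chromosome 8 held 4 lower runs. B2M opened a lower run of 8 genes on chromosome 15, with values from -4.34 to -0.49. IRF2 lay in a lower run of 8 on chromosome 4, with values from -1.79 to -0.57. The shared direction within a run is fixed by its definition, and the sizes of change differed within both runs. The longest run was a block of 21 zinc finger genes on chromosome 19 (19668796 to 24129968, GRCh38), all higher with a median of 2.37, and 8 of 9 genes of a higher run on chromosome 7 were zinc finger genes too. This family, chosen after the runs were seen, holds near-identical members whose reads may be split. Of 230 tested ZNF-numbered genes on chromosome 19, 107 were higher and 7 lower, against 53 higher and 145 lower of the 841 other protein-coding genes there.

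The interferon lists kept their lower medians when each gene was read against the median of its own chromosome. The receptor and JAK-STAT list then had a median of -0.65, the effectors -0.84, the antiviral genes -1.32, MHC class I -0.78, MHC class II -2.01 and the checkpoint ligands -1.43. The subtracted chromosome medians were small, with list medians of 0.0166 for MHC class I, MHC class II and the checkpoint ligands. They were 0.00019 for the antiviral genes and -0.033 for the effectors and the JAK-STAT list. The centring could therefore move these medians little, and it does not cover stretches shorter than a chromosome. The mesenchymal median moved from 1.2 to 0.81. Around FOXP3 on chromosome X, 56 of 76 protein-coding genes within 2000000 bases were tested. Of these 3 were higher and 12 lower, beside 16.6% higher and 20.4% lower of all protein-coding genes tested. The median of the 36 expressed was -0.23, against 0.04 for chromosome X.

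Many of these differences were present without IFNγ. Of the 7046 genes called under IFNγ, 6959 were tested in the untreated libraries, and 5509 were called there in the same direction, which is 79.2% of the calls under IFNγ and 69.2% of the 7965 calls without it. In the opposite direction 7 were called, among them the interferon genes APOL1 (-0.61 with IFNγ and 0.54 without), SP110 (-0.61 and 0.97) and SLFN5 (-1.48 and 1.12). The lists are set side by side here, without a test between them. Of the 14 lower MHC class II genes 10 had enough counts to be tested without IFNγ and 3 were also lower there, and of the 28 lower effectors 10 were, whereas 12 of the 14 lower checkpoint ligands and 11 of the 13 lower JAK-STAT genes were. The medians without IFNγ cover only the members tested there. They were -0.70 for 13 MHC class II genes, -0.10 for 39 effectors, -0.89 for 23 checkpoint ligands and -0.34 for 25 JAK-STAT genes. Their order is unlike that of the counts, but except for the checkpoint ligands fewer genes were tested than under IFNγ. The difference between lines itself differed with and without IFNγ for 31 of 27806 genes (0.111%) by the interaction test of edgeR. With IFNγ minus without, 30 of the 31 values were negative. Large values went uncalled by the same test, at -2.43 for CIITA (adjusted p = 0.514), -2.45 for HLA-DRA (adjusted p = 0.672) and 1.85 for NLRC5 (adjusted p = 0.099). A gene without a call may therefore still differ. The calls held IRF1, WARS1, CD74, RNF213, GBP1, GBP2, GBP5, CMPK2, CTSS, IFI16, APOL1, SP110 and SLFN5 of the genes named above, and neither CD274 (adjusted p = 1.0) nor JAK2 (adjusted p = 0.394).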

How the data were processed

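Per the study's methods, libraries were made from total RNA of both lines with the KAPA RNA HyperPrep kit, with ribosomal RNA removed by RiboErase. Mycoplasma reads were filtered out by the authors using Kraken, alignment was done by STAR (GRCh38, Ensembl 103), and htseq-count gave the deposited table of raw counts for 60666 genes. The submitters' processing notes name STAR 2.7.11a and hg38. The strand setting and the handling of reads matching several genes are not given in the sources used here, so overlapping, antisense and near-identical genes are uncertain.

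Samples were grouped by their labels. The 6 IFNγ-treated libraries were fitted with edgeR 4.0.16 (R 4.3.3): TMM normalization, a minimum of 10 counts summed over the libraries, quasi-likelihood test, Benjamini-Hochberg adjustment over all genes tested and a threshold of 0.05. The interaction used all 12 libraries. The procedure was tested on simulated counts. Gene positions came from GRCh38 with GENCODE 44, in which 60437 of the 60666 gene identifiers were found. Promoters came from RefSeq (GRCh38.p14) and matched 13193 tested genes by symbol. Intervals and floors cover counting error only.

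The genes named are preset anchors of each list, the most highly counted non-overlapping calls of each list, the 8 higher and 8 lower protein-coding genes of largest CPM difference, the 4 and 4 of largest fold change above 1 CPM in both lines, and the called genes near CD274. Some genes that this rule names are not reported here. Further list members are given as examples chosen after their values were seen. The lists, the comparison and the named genes were chosen with earlier results of these data known. Alternatives were other normalizations and filters, DESeq2 1.42.0, the bias-adjusted deviance, all libraries in 1 fit, a replicate block, thinning to equal depth, other thresholds and leaving out libraries. Medians centred on each chromosome and the zinc finger counts were added after the data were seen.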

Additional observations from a re-analysis of the deposited data

Results flagged for a closer look

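For 13 of the genes named above the difference between HT1376 FOXP3 KO and HT1376 CT was not the same with and without IFNγ by the interaction test of edgeR on 12 libraries with Benjamini-Hochberg adjustment. The value given is the log2 fold change between lines with IFNγ minus that without it. RNF213, an interferon-inducible ubiquitin ligase, had a value of -2.15 (adjusted p = 2.36e-05), from -0.36 without IFNγ to -2.47 with it. WARS1 had -1.46 (adjusted p = 0.000804), from 0.11 to -1.32. CD74 had -2.48 (adjusted p = 0.0217), from 0.18 to -2.39. IRF1 had -0.93 (adjusted p = 0.0171), from -0.28 to -1.17. CMPK2 had -3.25 (adjusted p = 0.0403), from 0.13 to -3.03, CTSS had -2.63 (adjusted p = 0.0281), from -0.70 to -3.36, and IFI16 had -1.11 (adjusted p = 0.0403), from -0.10 to -1.17. In these 7 genes a difference between lines was called under IFNγ and not without it.

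Of the guanylate-binding proteins, GBP1 and GBP2 were higher in HT1376 FOXP3 KO without IFNγ. GBP2 had a value of -4.98 (adjusted p = 4.51e-08), from 6.36 higher in HT1376 FOXP3 KO without IFNγ to 1.41 higher with it. GBP1 had -3.08 (adjusted p = 2.29e-06), from 2.94 higher without IFNγ to -0.10 with it. Both were called higher in untreated HT1376 FOXP3 KO cells, and under IFNγ the lines came closer. GBP5 had -3.13 (adjusted p = 0.0148), from 1.83 without IFNγ, which was not called, to -1.37 with it.

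The remaining 3 genes were called in opposite directions. SLFN5 had a value of -2.64 (adjusted p = 0.00124), from 1.12 without IFNγ to -1.48 with it. SP110 had -1.61 (adjusted p = 0.00107), from 0.97 to -0.61, and APOL1 had -1.19 (adjusted p = 0.0171), from 0.54 to -0.61. What sets the 13 genes apart was not tested.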

How the results depend on the processing

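The 7046 calls became 4625 with an absolute log2 fold change over 1, 2948 with one over 2 and 4385 at an adjusted p under 0.01. The higher genes became 1992, 1145 and 1908 under the same settings, and the lower genes 1803 with the fold change over 2 and 2477 at the stricter p. Other normalizations, filters, tools and depths gave 6028 to 7747 calls, the most with the bias-adjusted deviance. All 12 libraries in 1 fit gave 8134 calls and a replicate block gave 8287. Leaving out 1 library at a time gave 5031 to 6779 calls, 2308 to 3086 of them higher and 2723 to 3693 lower. In none of these fits was a called gene called in the opposite direction. With library size alone as scaling, 47.1% of the calls were lower, against 54.2%.

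Same-numbered libraries of the 2 lines had correlated deviations from their group means over genes of at least 5 CPM (r = 0.239, 0.464 and 0.254 across genes), but over all tested genes r was 0.0641, 0.141 and 0.0673, and HT1376 CT replicate 11 followed HT1376 FOXP3 KO replicate 13 more closely (0.284 and 0.0795). HT1376 CT replicate 12 followed only the same number over genes of at least 5 CPM, with r of -0.247 and -0.392 for HT1376 FOXP3 KO replicates 11 and 13. HT1376 CT replicate 13 also followed its own number most (0.254). Whether the numbers pair the libraries is not settled by these values, and the unpaired fit was kept as the main one. A replicate block gave 8287 calls, and 8854 with the bias-adjusted deviance, added after the data were seen. With the block, 9 glycolysis genes were higher and 10 lower, with SLC2A1 called higher (1.35, adjusted p = 9.54e-10 by edgeR), 13 cell cycle genes were higher and 11 lower, 8 epithelial junction genes were higher, 4 chemokines and cytokines were higher, 3 luminal genes were lower, 1 checkpoint ligand was higher and the mesenchymal median was 0.37. With the filter of 1 count, 9 glycolysis genes were higher and 9 lower, and 11 cell cycle genes were higher.

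Of 151 named genes tested, 129 were called, and 121 kept their call in the same direction under every alternative in which they were tested. Genes other than the anchors were named because they were called, so these counts do not describe genes at large. Of all 7046 calls, 69.8% were kept without HT1376 CT replicate 13 and 88.1% without HT1376 FOXP3 KO replicate 12, the ends of the range on leaving out 1 library. Among the named genes, the sign of the fold change turned only in those without a call. Leaving out 1 library at a time, CXCL8 ranged from -1.47 to 0.29, KRT5 from -0.85 to 1.23, CHGA from -0.55 to 0.73, ENO2 from -1.89 to 0.0102 and KRT8 from -0.0218 to 0.15. Without both libraries numbered 12, CXCL8 was at 0.0527 and EGFR at -0.0478, and with libraries thinned to equal depth PTPRC was at 0.84. The cause was not tested. Depth limits the genes at a few counts: 3 counts are 0.0956 CPM in the deepest library and 0.685 CPM in the shallowest.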
